A study of Homo sapiens with 36 samples.

Results

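The comparison described here sets 3 libraries of ATF4 knockout U2OS cells after 8 h of dimerizer against 3 untreated libraries of the same cells (0 h), chosen by genotype and time from 36 libraries in 12 groups of 3. U2OS is a human osteosarcoma line. All cells of the series, untreated and WT cells included, stably carry Dmr-PERK, in which the eIF2α kinase domain of mouse PERK is joined to a DmrB domain, so that the ligand AP20187 (the dimerizer) switches the kinase on. The labels give the dimerizer dose without a unit. The labels name the knockout as ATF4KO and do not say whether it is a single clone or a pool, or whether the replicates were separate cultures, and the p-values below therefore reflect only how these libraries vary among themselves, which may be technical. The only untreated libraries are those at 0 h, and cells without Dmr-PERK are not among the groups, so time in culture, the ligand and the kinase cannot be told apart. The 3 WT libraries at 8 h, the 3 at 0 h and the knockout libraries at 4 and 16 h serve below only to show where this contrast differs.

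PERK is a sensor kinase of the endoplasmic reticulum (ER). When it phosphorylates eIF2α, general translation initiation falls while a few mRNAs with upstream reading frames, ATF4 among them, are translated better; this is the integrated stress response (ISR). ATF4 is a bZIP transcription factor that, with partners such as C/EBP proteins, raises genes for amino acid synthesis and uptake, tRNA charging and feedback on the response, including DDIT3 (CHOP), TRIB3 and PPP1R15A (GADD34, a phosphatase subunit that removes the eIF2α phosphate). Cells that lack ATF4 can still stop translation, so the contrast asks which transcripts moved at 8 h without that factor.

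RNA was sequenced from a directional mRNA library, and the deposited read counts per gene were compared as read counts scaled to library size with TMM factors (CPM). The 6 libraries held 9520486 to 15234889 counts, and 27901 to 30510 gene entries had a count in each of them. Mitochondrially encoded genes took 5.72 to 5.86% of counts at 0 h and 4.68 to 4.75% at 8 h. Osteoblast and mesenchymal markers were uneven, with VIM at 2057 to 3056 CPM, COL1A1 at 938 to 1469 CPM and RUNX2 at 33.5 to 39.4 CPM. Others were low: COL1A2 reached 0.905 CPM, BGLAP 1.25 CPM and SPP1 2.4 CPM. SP7, IBSP and TWIST1 had 2, 1 and 1 counts in all 6 libraries together. Of the blood cell and endothelial markers HBB had no count, PTPRC reached 0.711 CPM and PECAM1 1.07 CPM, and the highest were CD34 (up to 3.01 CPM) and VWF (up to 3.20 CPM). Neural markers were not absent: TUBB3 stood at 40.8 to 67.3 CPM, MAP2 at 12.9 to 40.1 CPM, RBFOX3 at 10.8 to 15.4 CPM and SYP at 2.84 to 23.8 CPM, while GFAP reached 1.03 CPM and SOX10 had 1 count. Of 7 epithelial markers tested 2 rose and 2 fell, and their summed level went from 777 to 794 CPM at 0 h to 1083 to 1108 CPM at 8 h, nearly all of it KRT18 (mean 589 to 847 CPM) and KRT8 (174 to 235 CPM). Their part in the results below was not tested. CPM are shares of a library, so a change in RNA per cell cannot be seen in them.

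Of 19043 genes tested with edgeR's quasi-likelihood test, 5852 (30.7%) were higher and 5931 (31.1%) lower at 8 h at an adjusted p under 0.05, which is the meaning of "called", "rose" and "fell" throughout. The median log2 fold change over all tested genes was -0.04. Calls of at least 2-fold were fewer and uneven: 883 genes (4.64%) rose and 1863 (9.78%) fell that far. In 12466 genes (65.5%) the 3 libraries at 8 h did not overlap the 3 at 0 h, and 11256 of these were called. Because so many genes were called in each direction, a list is read below against these shares and against the median over all genes.

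**Figure D1:**
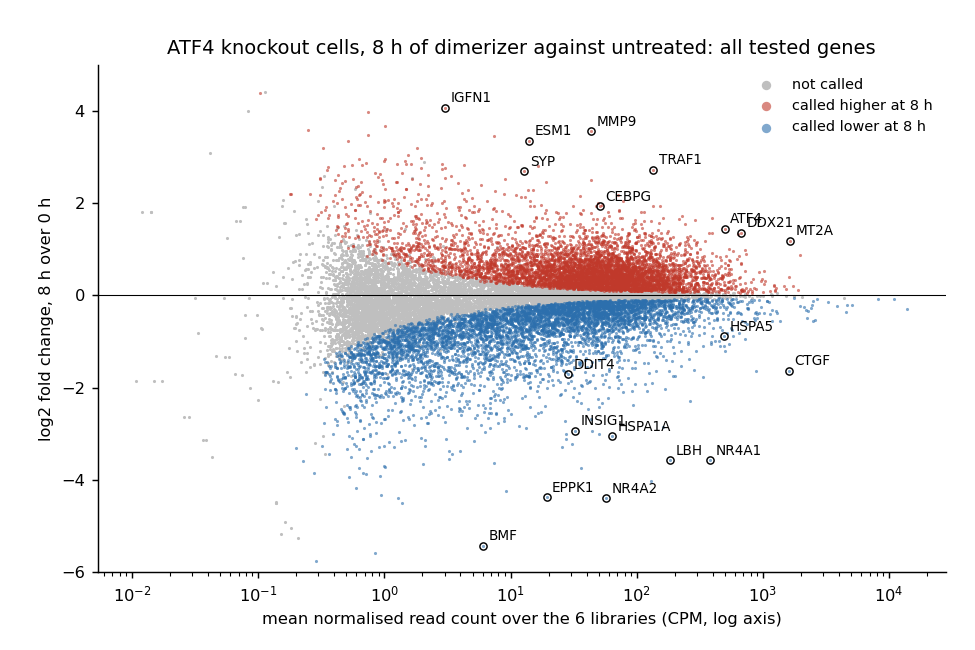
Each point is 1 of the 19043 tested genes; the x axis is its mean CPM over the 6 libraries on a log axis and the y axis the log2 fold change of 8 h over 0 h in ATF4 knockout cells, with called genes in red (5852 higher) and blue (5931 lower). Large falls (EPPK1, NR4A2, BMF) reached beyond -4, whereas few rises passed 3, and 17 genes lie outside the drawn range of -6 to 5.

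The targeted gene was read in every knockout library. ATF4 stood at 259, 274 and 265 CPM at 0 h and at 739, 702 and 739 CPM at 8 h, a log2 rise of 1.45 ± 0.03 (SE). The 8 h values were all above the 0 h values, and WT cells rose from 318 to 725 CPM. A transcript can stay when its reading frame is broken, so this level does not check the knockout label. Genes known to depend on ATF4 do bear on it. ASNS, asparagine synthetase, stood at 16.5, 18.2 and 17.2 CPM at 0 h and 14.3, 15.4 and 16.9 CPM at 8 h. Its change was not called (log2 -0.16 ± 0.09, edgeR adjusted p = 0.13), where WT cells went from 61.4 to 317 CPM. In the deposited TPM the fall of ASNS was called, at -0.46 over all columns and with only columns 1 and 2 of the untreated knockout. TRIB3, PPP1R15A and DDIT3, also named above, rose and are given below. EIF2AK3, which encodes the endogenous PERK and whose counts may include reads of the construct, changed by 0.13 ± 0.03 on the log2 scale.

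The ISR list (25 factors and effectors) divided evenly: 10 members rose, 10 fell and 5 were not called, with a median log2 change of 0.00. The same list in WT cells had 22 higher and 2 lower members and a median of 1.50. CEBPG, the heterodimer partner of ATF4, rose most among those measured well, from 22.4, 22.6 and 19.3 CPM to 78.2, 79.9 and 84.8 CPM (log2 1.94 ± 0.07). That rise was close to the WT one, and the difference between genotypes was not called (log2 -0.13 ± 0.09, adjusted p = 0.36).

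Feedback and stress factors rose more modestly. TRIB3, a pseudokinase that restrains the response, went from 23.9, 21.0 and 22.4 CPM to 48.9, 45.8 and 47.5 CPM (log2 1.08 ± 0.07). PPP1R15A went from 58.1, 62.6 and 60.7 CPM to 113, 129 and 124 CPM (log2 1.01 ± 0.06). The bZIP repressor gene NFIL3 rose by 1.14 ± 0.07 and the growth arrest gene GADD45A by 1.04 ± 0.05 on the log2 scale. DDIT3 rose least of these, from 23.5, 23.3 and 25.2 CPM to 34.9, 40.2 and 39.6 CPM (log2 0.67 ± 0.08). Its knockout mean was higher earlier, at 63.9 CPM at 2 h and 39.7 CPM at 4 h.

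Among ISR genes 7 fell by more than 2-fold, and in each the 8 h libraries lay below every 0 h library. DDIT4, an inhibitor of mTORC1, dropped from 42.3, 45.1 and 43.8 CPM to 12.6, 13.7 and 13.7 CPM (log2 -1.71 ± 0.10). JDP2, a bZIP repressor, dropped from 15.3, 13.7 and 16.9 CPM to 3.96, 4.84 and 4.24 CPM (log2 -1.83 ± 0.14). The cytokine gene GDF15 dropped from 31.9, 35.9 and 28.5 CPM to 13.9, 9.93 and 9.62 CPM (log2 -1.52 ± 0.11). ATF3, another bZIP factor, went from 122, 140 and 129 CPM to 47.5, 63.5 and 61.4 CPM (log2 -1.18 ± 0.11). In the deposited TPM over all columns its fall was not called (-0.35). ATF3 was not low throughout, with knockout means of 131, 396 and 136 CPM at 0, 2 and 4 h. The lipoprotein receptor gene VLDLR fell by 1.15 ± 0.10, the ubiquitin ligase adaptor gene KLHL24 by 1.85 ± 0.11 and the stress chromatin factor gene NUPR1 by 1.21 ± 0.16 on the log2 scale. CEBPB fell by 0.36 ± 0.06, and this sign was not kept in the deposited TPM (log2 0.03 over all columns), which differ for 1 untreated knockout library as described with the immediate early genes.

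Some effectors that depend on ATF4 in other cells were scarcely expressed. CHAC1, a glutathione-degrading enzyme, had 0, 0.356 and 0.0646 CPM at 0 h and 0.0825, 0.255 and 0.718 CPM at 8 h, and the groups overlapped (adjusted p = 0.14). Its change was the lower against WT in TPM over all columns (log2 difference -2.76, limma adjusted p = 1.8e-09), though that difference was not called on counts. FGF21 had no count in the 6 libraries, which allows up to 0.0405 CPM for counting error only. STC2, a secreted stress glycoprotein gene, stayed at 0 to 0.623 CPM, whereas WT cells rose from 0.479 to 6.40 CPM, and the difference of the changes was not called without untreated knockout replicate 1 (adjusted p = 0.18). SESN2, a sestrin that restrains mTORC1, was well above this but did not pass the test, at 23.5, 25.6 and 23.7 CPM against 24.5, 24.5 and 24.9 CPM (log2 0.03 ± 0.10). The cystine transporter gene SLC7A11 rose from 2.70, 2.14 and 1.81 CPM to 2.81, 3.23 and 3.52 CPM (log2 0.57 ± 0.21, edgeR adjusted p = 0.016). This call was lost without untreated replicate 3 (0.41, edgeR adjusted p = 0.14) or 8 h replicate 3 (0.49, edgeR adjusted p = 0.078). In the deposited TPM the rise was not called either, at 0.05 over all columns and 0.14 with only columns 1 and 2. WT cells rose from 35.0 to 317 CPM.

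**Figure D2:**
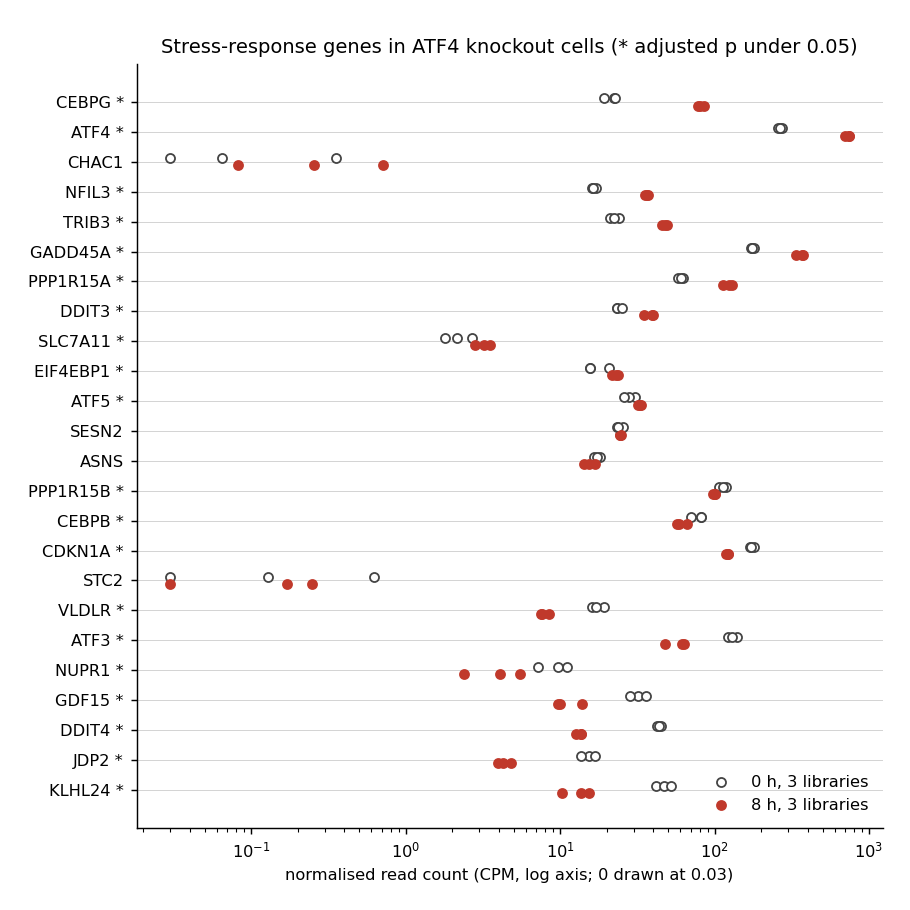
CPM of 24 genes of the ISR list (FGF21, with no count, is left out) in each of the 3 untreated (open) and 3 dimerizer-treated (red) knockout libraries, on a log axis, ordered by log2 change; an asterisk marks an adjusted p under 0.05. Genes at the top (CEBPG, ATF4, NFIL3, TRIB3) have red points to the right of the open ones, and genes at the bottom (KLHL24, JDP2, DDIT4, GDF15) have them to the left.

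CHAC1 is 1 of 3 ISR members (of 21 with a RefSeq promoter) whose 300-base window holds TGATGCAA on either strand. The window runs from 250 bases before to 50 after the start, and these letters are a core shared by C/EBP-ATF composite elements. Of all 27305 windows 0.923% hold it, and of the 11540 windows of tested genes 0.511%. BCL2A1, an anti-apoptotic BCL2 relative described below, is in another list and also holds it. Both are shown because their levels parted: CHAC1 stayed near 0 and BCL2A1 rose. Each run is the 250 bases before the RefSeq start (GRCh38.p14), 5′ to 3′ on the gene's strand, with the match (on the opposite strand in CHAC1) in capitals: chr15:40953221-40953470 (+) for CHAC1 and chr15:79971197-79971446 (-) for BCL2A1. A match describes the letters only.
CHAC1: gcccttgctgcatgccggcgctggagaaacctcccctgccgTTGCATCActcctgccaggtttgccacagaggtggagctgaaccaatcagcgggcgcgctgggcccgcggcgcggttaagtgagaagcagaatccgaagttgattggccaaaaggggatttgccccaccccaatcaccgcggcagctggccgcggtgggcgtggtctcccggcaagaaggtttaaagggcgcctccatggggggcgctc
BCL2A1: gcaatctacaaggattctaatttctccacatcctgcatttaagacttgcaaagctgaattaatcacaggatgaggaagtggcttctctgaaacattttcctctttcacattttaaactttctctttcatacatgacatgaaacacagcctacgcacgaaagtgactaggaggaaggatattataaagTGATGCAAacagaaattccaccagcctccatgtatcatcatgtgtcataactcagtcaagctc

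Enzymes of amino acid and folate metabolism also divided, with 8 of 20 higher, 7 lower and a median log2 change of -0.03, against 17 higher, 3 lower and a median of 1.40 in WT cells. PHGDH, which catalyses the first step of serine synthesis, went from 14.1, 16.8 and 14.2 CPM to 6.19, 8.32 and 8.40 CPM (log2 -0.97 ± 0.11). PSAT1, the next enzyme of that pathway, went from 13.3, 11.5 and 12.1 CPM to 6.27, 5.18 and 6.68 CPM (log2 -1.01 ± 0.11). CTH, which makes cysteine from cystathionine, fell by 0.90 ± 0.14. MTHFD2, a mitochondrial folate enzyme, moved the other way, from 75.9, 64.8 and 65.1 CPM to 160, 171 and 164 CPM (log2 1.27 ± 0.05).

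Among 17 amino acid transporters tested, 9 rose and 7 fell. The glutamine carrier genes SLC1A5 (log2 1.05 ± 0.05) and SLC38A1 (0.90 ± 0.06) rose, as did SLC7A5 (0.77 ± 0.04), which encodes the light chain of the leucine carrier. SLC38A2, a sodium-coupled neutral amino acid carrier that is usually raised by amino acid shortage, fell from 607, 692 and 710 CPM to 295, 323 and 323 CPM (log2 -1.10 ± 0.05). The glycine carrier gene SLC6A9 fell from 11.1, 9.52 and 8.40 CPM to 3.63, 3.82 and 3.81 CPM (log2 -1.34 ± 0.12). In deposited TPM over all columns the number of lower transporters was 4. That fit called fewer of all 19043 genes than the fit on counts, 4498 higher and 4926 lower, and its list counts are to be read against these.

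Cytosolic tRNA synthetases, which charge tRNAs with amino acids, rose in 17 of 20 cases (median log2 0.53), and 3 fell. FARSB, a phenylalanyl synthetase subunit, rose from 31.7, 28.4 and 25.1 CPM to 85.1, 79.4 and 84.7 CPM (log2 1.57 ± 0.06). AARS (-0.23 ± 0.04), EPRS (-0.14 ± 0.03) and QARS (-0.58) were the members that fell. WT cells had 19 higher and a median of 1.19, and in 12 members the knockout change was the lower by the test of the difference, with WARS (0.69 in the knockout, 2.21 in WT) and AARS (1.32 in WT) among them.

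All 34 ribosome biogenesis genes were higher (median log2 1.16, range 0.25 to 1.67). RRP9, a component of the U3 snoRNP that cuts pre-rRNA, rose from 39.1, 36.4 and 34.4 CPM to 119, 117 and 113 CPM (log2 1.67 ± 0.06). UTP4, of the small-subunit processome, rose from 79.5, 79.3 and 82.3 CPM to 208, 216 and 221 CPM (log2 1.42 ± 0.04). The nucleolar genes NCL (0.85 ± 0.03) and NPM1 (0.51 ± 0.03) rose less, from higher levels of 461 and 768 CPM. RNA polymerase I and III genes followed, with 27 of 33 higher, 2 lower and a median of 0.57; POLR1B, the second-largest Pol I subunit, rose by 1.19 ± 0.04.

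Translation factors rose in 23 of 26 cases (median log2 0.55), led by EIF5, the GTPase activator of start-codon selection, which went from 141, 143 and 132 CPM to 303, 304 and 304 CPM (log2 1.13 ± 0.03). Of the eIF2 kinases and the eIF2 and eIF2B subunits, 8 of 12 rose and 3 fell; EIF2B3, a subunit of the exchange factor that phosphorylated eIF2 inhibits, rose by 1.29 ± 0.08 and EIF2AK4 (GCN2) fell by 0.32. Ribosomal proteins behaved apart from their assembly factors: 16 of 37 were higher, 7 lower, all within -0.24 to 0.22 of log2, with RPL23 lowest and RPL10A highest. Nonsense-mediated decay factors rose in 13 of 14 cases (median 0.52), and mitochondrial chaperones and proteases in 14 of 17 (median 0.40), with GRPEL1 at 1.04 and OMA1, a stress-activated inner membrane protease gene, at -1.07.

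The E box CACGTG, the letters bound by MYC and related factors, was in 10 of 28 ribosome biogenesis windows (35.7%). It was in 7.43% of all windows and in 9.85% of those of tested genes. UTP4 is shown as a member with the match wholly before its start, at chr16:69132399-69132648 (+), with the match in capitals.
UTP4: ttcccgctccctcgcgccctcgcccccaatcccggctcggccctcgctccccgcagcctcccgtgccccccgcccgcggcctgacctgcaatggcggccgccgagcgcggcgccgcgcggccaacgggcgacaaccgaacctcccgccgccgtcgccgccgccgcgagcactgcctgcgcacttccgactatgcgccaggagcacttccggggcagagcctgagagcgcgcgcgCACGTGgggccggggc

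MYC itself rose from 156, 151 and 151 CPM to 359, 380 and 378 CPM (log2 1.29 ± 0.04), with no overlap. Its relatives moved both ways: 6 of 11 network members rose and 4 fell. MAX, the shared partner, rose by 0.71 and MXD1, an antagonist, by 1.22 ± 0.19, whereas the antagonist genes MXD3 (-1.18 ± 0.11) and MXD4 (-0.91) fell and MYCL fell from 3.84, 4.09 and 3.17 CPM to 0.825, 0.340 and 0.575 CPM (log2 -2.63 ± 0.29).

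ER chaperone and ER-associated degradation genes fell in 20 of 27 cases, 1 rose and the median log2 change was -0.38. HSPA5 (BiP), the main chaperone of the ER lumen, went from 642, 630 and 637 CPM to 335, 339 and 355 CPM (log2 -0.89 ± 0.03). HERPUD1, which helps send misfolded proteins to the proteasome, went from 104, 104 and 113 CPM to 34.2, 32.8 and 35.3 CPM (log2 -1.65 ± 0.05). Both groups of libraries were tight and far apart. DNAJB9, a co-chaperone, fell by 0.83 ± 0.09, EDEM3 by 0.81 and SDF2L1 by 0.75, and the member that rose was VIMP, a membrane selenoprotein gene, at 0.45 ± 0.05.

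The regulators of the unfolded protein response went both ways, with 5 of 11 higher and 6 lower. XBP1, whose spliced mRNA encodes the factor downstream of IRE1, fell from 87.3, 95.0 and 94.6 CPM to 54.0, 57.0 and 59.1 CPM (log2 -0.70 ± 0.06); gene counts do not separate its splice forms. ERN1, which encodes IRE1, rose by 0.52 ± 0.06. In the deposited TPM the untreated columns had 86.5, 89.0 and 43.5 for XBP1, 119, 142 and 40.5 for HERPUD1 and 245, 249 and 175 for HSPA5. The last of each set is the column that matches no untreated count library, and at 8 h XBP1 (49.7, 53.3 and 52.5 TPM) lay above it in every library, while HERPUD1 (37.7, 40.1 and 45.5 TPM) lay on both sides of it.

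The ER stress element, CCAAT and CCACG with 9 bases between them, was on either strand in 6 of 25 windows of this list (24%). It was in 0.0806% of all windows and in 0.139% of those of tested genes. HSPA5, at chr9:125241344-125241593 (-), and CRELD2, an ER protein gene that fell by 0.39 ± 0.05, at chr22:49918384-49918633 (+), carry it before the start, with its outer letters in capitals; in CRELD2 the match is on the opposite strand.
HSPA5: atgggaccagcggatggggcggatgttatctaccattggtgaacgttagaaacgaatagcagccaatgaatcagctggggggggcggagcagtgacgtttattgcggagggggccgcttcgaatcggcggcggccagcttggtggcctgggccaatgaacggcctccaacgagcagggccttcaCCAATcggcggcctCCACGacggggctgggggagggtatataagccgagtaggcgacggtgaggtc
CRELD2: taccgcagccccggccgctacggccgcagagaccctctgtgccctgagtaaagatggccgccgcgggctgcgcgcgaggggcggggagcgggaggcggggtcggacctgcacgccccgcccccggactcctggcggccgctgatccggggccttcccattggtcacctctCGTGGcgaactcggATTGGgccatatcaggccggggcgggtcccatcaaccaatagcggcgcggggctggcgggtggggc

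Cytosolic heat shock genes fell in 16 of 22 cases and rose in 5 (median log2 -0.24). HSPA1A, an inducible HSP70, dropped from 121, 111 and 109 CPM to 12.7, 14.8 and 13.6 CPM (log2 -3.05 ± 0.09). HSPA1B, a near-identical copy with which it shares reads, fell by 2.25 ± 0.08, so the split between the copies is uncertain. HSPA8, the constitutive HSP70, fell from 988, 956 and 934 CPM to 518, 472 and 496 CPM (log2 -0.95 ± 0.03), and HSF1, their transcription factor, was 0.42 higher.

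Immediate early genes, which answer growth factors and stress within minutes through SRF, CREB and AP-1, fell in 18 of 27 cases, rose in 4 and had a median log2 change of -1.06. The orphan nuclear receptors fell most among those measured well. NR4A1 went from 634, 733 and 756 CPM to 50.8, 64.4 and 62.4 CPM (log2 -3.58 ± 0.08). NR4A2 went from 96.6, 115 and 114 CPM to 4.29, 5.43 and 5.67 CPM (log2 -4.40 ± 0.11), and NR4A3 fell by 4.03 ± 0.13. The zinc finger factor gene EGR2 went from 51.2, 61.0 and 54.4 CPM to 6.77, 4.50 and 6.46 CPM (log2 -3.22 ± 0.14).

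Other members fell less or did not move. The anti-proliferative BTG2 fell by 2.08 ± 0.07, FOS by 1.44 and EGR1 by 0.49 ± 0.08 on the log2 scale, SRF itself by 1.32 ± 0.04, while JUN (0.11), IER2 (0.08) and FOSL1 (-0.02) did not pass the test. NPAS4, a neuronal activity factor, had 130 counts at 0 h and none at 8 h, at least 45.1-fold lower with a floor of 3 counts over the 3 libraries. MYC and KLF2 (1.00 ± 0.08) were the largest rises in this list. The MAP kinase phosphatases and Sprouty genes, feedback inhibitors of the same pathway, had 4 of 12 higher and 6 lower; DUSP2 fell from 375, 471 and 466 CPM to 80.1, 91.1 and 99.8 CPM (log2 -2.28 ± 0.09).

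These falls rest on the untreated count libraries, which lay close to one another. Among the deposited TPM of untreated knockout cells, the first and second columns match count libraries and the third matches none; in it 21 of 27 immediate early genes were below 0.5 times the lower of the other columns; where that column comes from was not tested. NR4A1 was listed there at 533, 554 and 30.7 TPM and EGR1 at 266, 244 and 28.1 TPM, against 47.2, 55.8 and 59.1 TPM and 181, 176 and 170 TPM at 8 h. With all TPM columns the list had 8 higher and 11 lower members and a median of -0.27, EGR1 stood at 0.51, FOSL1 at 0.95 and DUSP2 at -0.73 (not called). With only the matching columns the list had 4 higher, 18 lower and a median of -0.89. CRE letters (TGACGTCA) were in 1 of 20 windows of this list (5%), in 1.98% of all windows and in 3.04% of those of tested genes.

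YAP and TEAD targets, which respond to cell shape and adhesion, fell in 13 of 22 cases and rose in 7. CTGF, a matrix-associated growth factor, went from a mean of 2437 to 788 CPM (log2 -1.63 ± 0.05) and CYR61 fell by 0.55 ± 0.03, whereas WWC1 (1.24 ± 0.04) and ASAP1 (1.22 ± 0.04) rose. Of the ID and SMAD genes, 11 of 18 rose and 6 fell, with SMAD9 at 1.11 ± 0.14 and BAMBI, a decoy receptor for BMP and TGF-β ligands, at -1.30 ± 0.12. Over all TPM columns 5 YAP targets and 2 ID and SMAD genes were lower, CYR61 stood at 0.19 and CTGF at -0.64 without a call.

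NF-κB and cytokine genes rose in 20 of 30 cases, fell in 6, and had a median log2 change of 0.67. TRAF1, a signalling adaptor and classical NF-κB target, rose from 41.7, 33.9 and 32.2 CPM to 223, 239 and 244 CPM (log2 2.73 ± 0.10). BIRC3, an inhibitor of apoptosis, rose from 60.2, 45.0 and 47.9 CPM to 164, 177 and 187 CPM (log2 1.81 ± 0.10). RELB, a subunit of the non-canonical arm, rose by 1.39 ± 0.05, and ICAM1, an adhesion molecule, from 0.520, 0.356 and 0.323 CPM to 2.48, 2.89 and 3.16 CPM. The chemokine gene CXCL8 went from 206, 179 and 183 CPM to 263, 344 and 384 CPM (log2 0.81 ± 0.12), with no overlap but a wide spread at 8 h.

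Against them, REL (-1.09 ± 0.08), the feedback inhibitor gene TNFAIP3 (-0.99 ± 0.10) and NFKBIZ (-0.91) fell, and NFKBIA did not pass the test (0.01). With all TPM columns no member was lower by limma, 21 were higher, TNFAIP3 stood at 0.06 and REL at -0.32. The letters GGGNNTTCC, a form of the κB site, were in 6 of 25 windows (24%). They were in 6.6% of all windows and in 7.91% of those of tested genes. BIRC3 is shown as a member that rose, at chr11:102317234-102317483 (+), with the match, on the opposite strand, in capitals.
BIRC3: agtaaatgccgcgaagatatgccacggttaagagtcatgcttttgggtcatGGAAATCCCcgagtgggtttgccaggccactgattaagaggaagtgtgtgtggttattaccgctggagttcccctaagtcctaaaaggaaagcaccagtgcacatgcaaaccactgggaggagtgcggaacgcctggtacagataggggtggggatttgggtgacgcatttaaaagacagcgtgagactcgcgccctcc

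BCL2 family genes, which set the threshold of mitochondrial apoptosis, rose in 9 of 17 cases and fell in 4. The anti-apoptotic BCL2A1 had 3 counts in the untreated libraries together and 527 at 8 h, a ratio of 169 per library size (95% exact interval 57.4 to 821, counting error only); its 8 h levels were 12.8, 13.7 and 15.2 CPM. The BH3-only gene BMF moved opposite, from 11.5, 11.5 and 12.4 CPM to 0.165, 0.255 and 0.359 CPM (log2 -5.43 ± 0.27). BID, cleaved by caspase-8, rose from 5.40, 6.85 and 5.82 CPM to 16.7, 15.9 and 18.0 CPM (log2 1.49 ± 0.11), and HRK fell by 1.24 ± 0.20. Of 14 death receptor genes 8 rose and CASP10, an initiator caspase, fell by 2.45 ± 0.18.

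Cholesterol synthesis and uptake genes fell in 24 of 25 cases and none rose (median log2 -0.79). INSIG1, the sterol-regulated ER retention factor of SREBP, went from 53.6, 57.9 and 59.9 CPM to 8.83, 7.56 and 6.32 CPM (log2 -2.93 ± 0.10). The sterol carrier gene STARD4 fell by 1.92 ± 0.05, and TM7SF2, a sterol reductase gene, did not pass the test (0.02). Lysosomal genes fell in 23 of 30 cases (median -0.32), with MANBA at -1.04 ± 0.08; TFEB, a transcription factor for such genes, rose from 6.23, 7.92 and 8.08 CPM to 24.8, 24.8 and 23.1 CPM (log2 1.68 ± 0.10).

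Proteasome subunits rose in 21 of 31 cases and none fell, but the median was only 0.22, led by PSMD2 (0.74 ± 0.03). Glycolysis genes divided (9 higher and 10 lower of 23), with HK2, which phosphorylates glucose, at 1.56 ± 0.07 and PFKFB4 at -1.14 ± 0.11. NRF2 targets divided as well (7 higher and 9 lower of 20), with SRXN1 at 0.80 ± 0.04, PRDX1 at -0.89 ± 0.04 and HMOX1, heme oxygenase, at -0.85 ± 0.08. Of 33 matrix genes 21 fell and 5 rose; THBS1 fell by 1.63 ± 0.04, while COL6A3 (1.17 ± 0.08) and TIMP1 (0.70 ± 0.06) rose. In TPM over all columns 9 matrix genes were lower, and 13 proteasome subunits were higher and 3 lower.

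Cell cycle genes moved little. S phase genes rose in 23 of 41 cases (median log2 0.23), with POLE2 at 0.99 ± 0.08 and the licensing factor gene CDT1 at 0.92 ± 0.09, and PCNA and PRIM2 fell. Mitotic genes rose in 18 of 30 cases (median 0.15), with AURKA at 0.72 ± 0.08 and KIF20A at -0.90 ± 0.08, but with all TPM columns 0 were higher and 8 lower by limma, and 15 higher and 3 lower with only the matching columns; AURKA stood at 0.22 over all columns. CDKN1C, a CDK inhibitor, went from 22.4, 25.1 and 22.4 CPM to 2.89, 3.40 and 3.16 CPM (log2 -2.88 ± 0.15). Of 22 p53 targets 14 fell and 5 rose, with TP53INP1 at -1.88 ± 0.07, CDKN1A at -0.52 and the nuclease gene AEN at 1.11 ± 0.03.

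**Figure D3:**
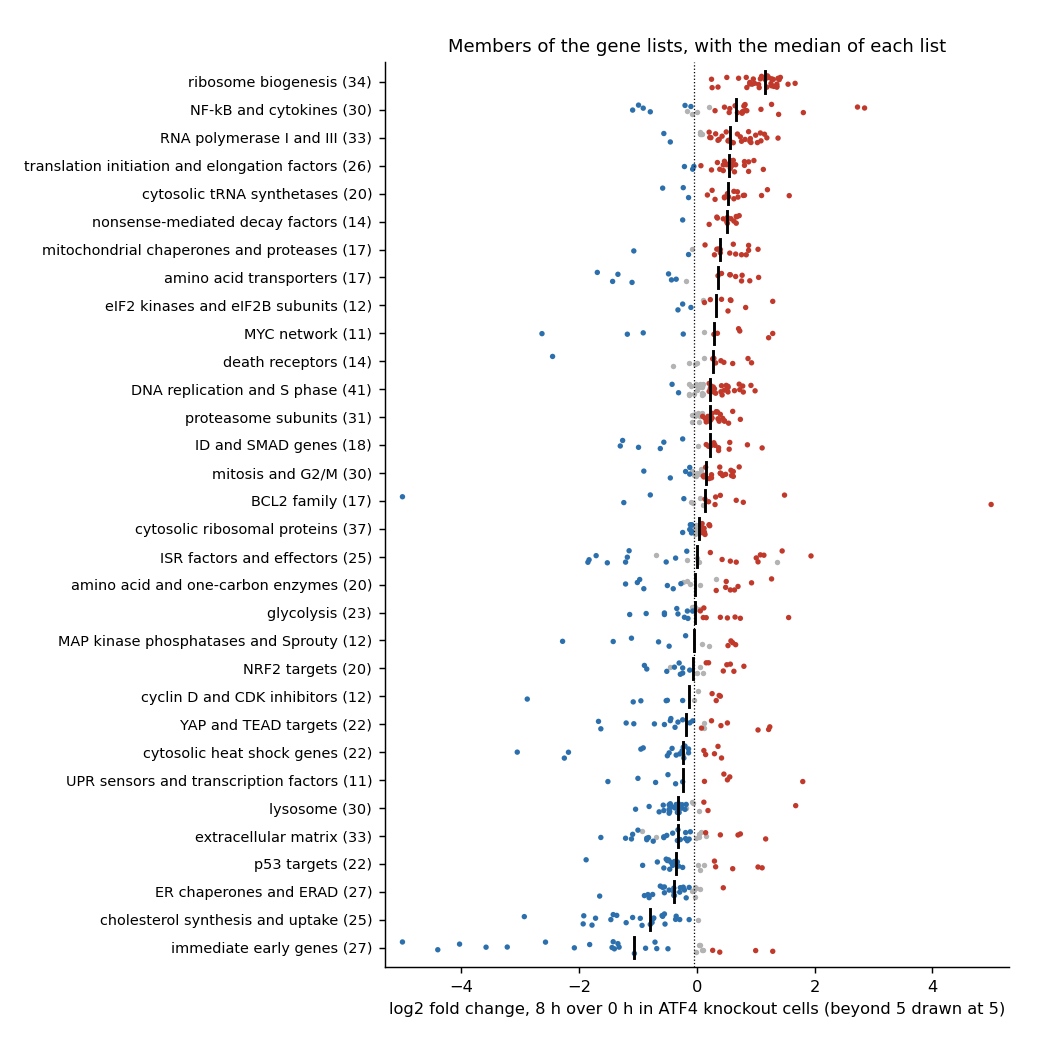
Each point is a tested member of 1 of the 32 gene lists (number tested in brackets), placed by its log2 change at 8 h in knockout cells, red or blue where called and grey where not; the black bar is the list's median and the dotted line the median over all genes, -0.04. Ribosome biogenesis (1.16) and NF-κB genes (0.67) have the highest medians and immediate early (-1.06) and cholesterol genes (-0.79) the lowest. Values beyond 5 are drawn at 5, and the values of BCL2A1 and NPAS4 are fitted ones that rest on few or no counts in 1 group.

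Beyond the lists, the rises of largest fold with non-overlapping groups and a mean of at least 1 CPM included several secreted or matrix-acting products. MMP9, gelatinase B, rose from 9.04, 5.87 and 6.01 CPM to 87.4, 79.6 and 74.6 CPM (log2 3.56 ± 0.14). ESM1, endocan, rose from 4.16, 1.51 and 2.07 CPM to 27.4, 25.0 and 23.8 CPM (log2 3.36 ± 0.19), and MMP10, stromelysin-2, by 2.86 ± 0.27. IGFN1 rose by 4.07 ± 0.31, IL15RA, a cytokine receptor chain, by 3.04 ± 0.36, G0S2, an inhibitor of fat breakdown, by 2.91 ± 0.32, TMEM265 by 3.46 ± 0.26 and RCSD1 by 2.85 ± 0.51. SYP, a synaptic vesicle protein gene among the neural markers, rose from 3.74, 3.92 and 2.84 CPM to 22.3, 20.4 and 23.8 CPM (log2 2.69 ± 0.13), while the other 3 neural markers tested fell and the summed level of the list went from 120 to 125 CPM down to 87.1 to 93.1 CPM. Read-through or duplicated entries also ranked high (DYX1C1-CCPG1, ZFP91-CNTF, LIMS4, GOLGA6A), and their counts can be split with overlapping or similar genes, so they are uncertain; DYX1C1-CCPG1 had 1.32, 0.170 and 5.82 CPM at 8 h.

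The largest falls outside the lists included EPPK1, a cytolinker gene, from 39.8, 36.6 and 34.3 CPM to 1.98, 1.87 and 1.44 CPM (log2 -4.38 ± 0.14), and SDPR, a caveolar protein gene (-4.25 ± 0.21). LBH, a transcription cofactor gene, went from 319, 347 and 355 CPM to 27.3, 28.4 and 30.0 CPM (log2 -3.57 ± 0.06). The glucose transporter gene SLC2A12 fell by 3.74 ± 0.15, SORBS2 by 3.64 ± 0.20, ABRA, an SRF coactivator, by 4.51 ± 0.50 and SOX2, a stem cell factor, by 3.43 ± 0.27. In absolute terms MT2A gained most, from 1064, 959 and 975 CPM to 2318, 2239 and 2270 CPM, followed by FLNC, a filamin (mean 1400 to 2556 CPM). MT-CO1 lost most, from 15210, 15474 and 15314 CPM to 12473, 12458 and 12536 CPM.

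The change at 8 h was then compared with the change in WT cells, whose libraries are not shared, by the difference of the changes. In WT cells 5652 genes (29.7%) rose and 5646 (29.6%) fell. The knockout change was the higher in 2146 genes (11.3%) and the lower in 1331 (6.99%), that is 61.7% of calls higher. In deposited TPM over all columns, tested with limma, the counts were 662 and 841, 44% higher. Which side was larger thus changed between fits that differ in unit, scaling and test together, and the cause was not tested. Of 9246 genes called in both genotypes, 8967 moved the same way. The other 279 moved in opposite directions: 116 genes (0.609%) rose in the knockout and fell in WT, and 163 (0.856%) fell in the knockout and rose in WT. The difference was called in each, which adds little, since genes chosen by opposite calls in the same libraries have a large difference already.

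Several lists parted, and the ISR genes and amino acid enzymes had the lowest median differences (log2 -1.45 and -1.11). In 20 of 25 ISR genes and 15 of 20 amino acid enzymes the knockout change was the lower, and in 1 of each the higher. It was also the lower in 12 of 17 amino acid transporters and 12 of 20 tRNA synthetases, and the higher in 1 and 3. For translation factors and glycolysis genes it was the higher in 13 of 26 and 12 of 23, and the lower in 2 and 0. DDIT4 differed most of those measured well, at -4.39 ± 0.12 on the log2 scale, with WT cells rising from 66.5 to 425 CPM. CTH differed by -3.95 ± 0.15, PSAT1 by -3.36 ± 0.12, SLC6A9 by -3.27 ± 0.13, TRIB3 by -2.88 ± 0.10 and SESN2 by -2.88 ± 0.12. HSPA5 (-1.26 ± 0.04), HERPUD1 (-1.85 ± 0.06), XBP1 (-2.26 ± 0.07), VLDLR (-2.66 ± 0.12) and HMOX1 (-1.56 ± 0.12) fell in the knockout and rose in WT. Outside the lists TSLP, an epithelial cytokine gene (-4.54 ± 0.43), SPX (-3.84 ± 0.50), OLAH (-3.74 ± 0.29), XKR8 (-4.06 ± 0.54) and FKBP9P1 (-3.89 ± 0.36) had the lowest differences, and SPX stood at 0.416 to 0.934 CPM in all 6 knockout libraries against 6.94 and 98.3 CPM in WT cells at 0 and 8 h.

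Some lists moved one way in both genotypes and others did not. In WT cells 3 ribosomal protein genes rose and 15 fell (median -0.04), and the medians of the unfolded protein response regulators (-0.24 in the knockout, 0.28 in WT) and the NRF2 targets (-0.06 and 0.22) differed in sign. Ribosome biogenesis genes rose in 34 of 34 cases in WT cells too (median log2 0.92), and the difference was called in 18 (11 in TPM over all columns), each with the larger rise in the knockout. Cholesterol genes had a median of -0.79 in both genotypes, and INSIG1 did not differ by the test (0.04 ± 0.17). With that SE, a true difference well above the SE could also have been missed. The change was the higher in the knockout for 14 of 22 heat shock genes, 17 of 31 proteasome subunits and 15 of 27 immediate early genes, but in TPM over all columns for 6, 1 and 8 of them. Among the last, EGR2 (1.32 ± 0.32) and EGR1 (1.04 ± 0.11) fell less than in WT.

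The largest positive differences included genes of low level. TNFRSF8, the CD30 receptor, rose from 0.935, 0.890 and 0.646 CPM to 3.14, 3.65 and 3.66 CPM, and WT cells had 1.29 and 1.09 CPM (difference 2.32 ± 0.43). The growth factor gene CSF2 rose by 0.69 ± 0.19 and fell in WT by 1.12 on the log2 scale (difference 1.81 ± 0.31). IL11 rose by 0.55 ± 0.08 and fell in WT by 0.64 (difference 1.19 ± 0.12), and MMP9 differed by 1.32 ± 0.22. AL078584.1 and AC026348.1 ranked higher still, but each had no count in 1 of the 4 groups, and the pseudogene SMG1P4 (1.72 ± 0.53) shares sequence with SMG1 and its call was lost without either knockout replicate 3.

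**Figure D4:**
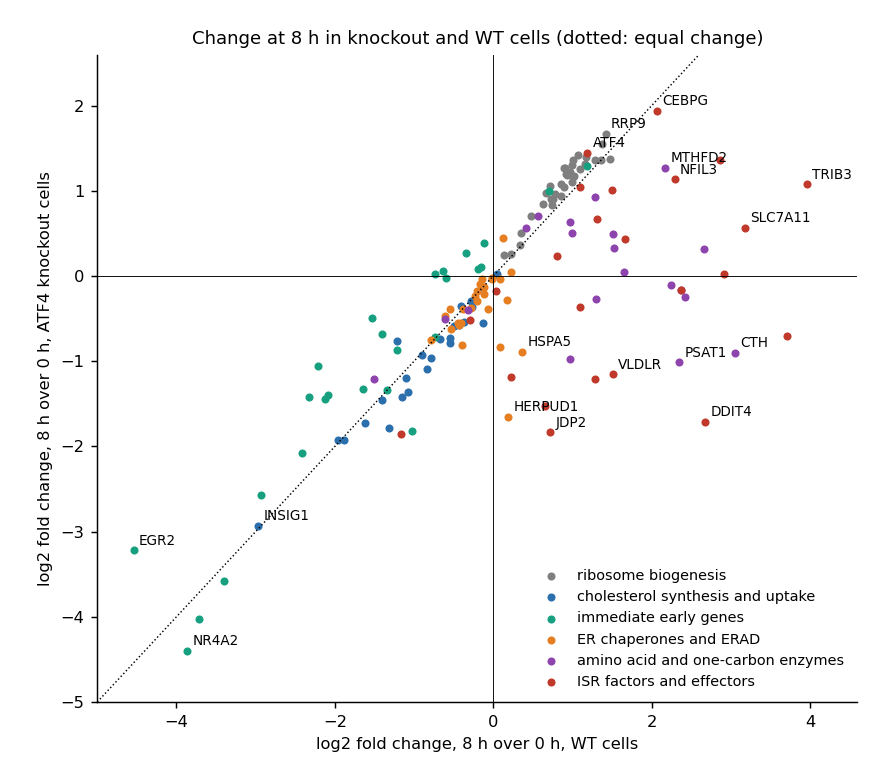
Members of 6 lists are placed by their log2 change at 8 h in WT cells (x axis) and in ATF4 knockout cells (y axis), with genes of 3 or fewer counts in any of the 4 groups left out; the dotted line marks equal change. Ribosome biogenesis, cholesterol and most immediate early genes lie along the line, whereas ISR genes (red) and amino acid enzymes (purple) lie below it on the right, with DDIT4 at 2.68 in WT and -1.71 in the knockout.

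Within the knockout course the 8 h libraries were set between those at 4 and 16 h. Against 4 h, 4394 genes (23.1%) were higher and 3891 (20.4%) lower at 8 h; against 8 h, 5099 (26.8%) were higher and 4794 (25.2%) lower at 16 h. The first split turned without 4 h replicate 3, with 3719 higher and 3803 lower, and in deposited TPM, with 2099 higher and 2781 lower over all columns. The 8 h level was above 0, 4 and 16 h in 1102 genes (5.79%) and below all of these in 837 (4.4%). These contrasts share the 8 h libraries, so the values are given side by side.

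BCL2A1 was among the peaks, with means of 0.0989, 0.325, 2.76, 13.9, 2.12 and 1.12 CPM at 0, 2, 4, 8, 16 and 24 h. ITGA2, an integrin collagen receptor, peaked at 146 CPM against 58.4 at 4 h and 54.3 at 16 h. TFEB, LAMB3 (915 CPM against 520 and 398) and TRAF1 had their highest mean at 8 h. Other NF-κB genes were past their highest level: CXCL8 had 571 CPM at 2 h, 1020 CPM at 4 h, 330 CPM at 8 h and 18.6 CPM at 16 h, and in this list 18 of 30 genes were lower at 8 h than at 4 h and 28 lower at 16 h than at 8 h.

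Troughs at 8 h included HSPA1A, at 30.4, 13.7 and 68.8 CPM at 4, 8 and 16 h. CTH (5.28, 3.41 and 6.50 CPM) and SLC6A9 (6.30, 3.75 and 6.32 CPM) were also lowest then. Falls in DDIT4 (24.4, 13.3 and 5.52 CPM), HERPUD1 (47.1, 34.1 and 18.1 CPM) and NR4A1 (327, 59.2 and 17.6 CPM) went on to 16 h. Ribosome biogenesis genes were higher at 8 h than at 4 h in 34 of 34 cases, and at 16 h 16 were higher and 9 lower than at 8 h.

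**Figure D5:**
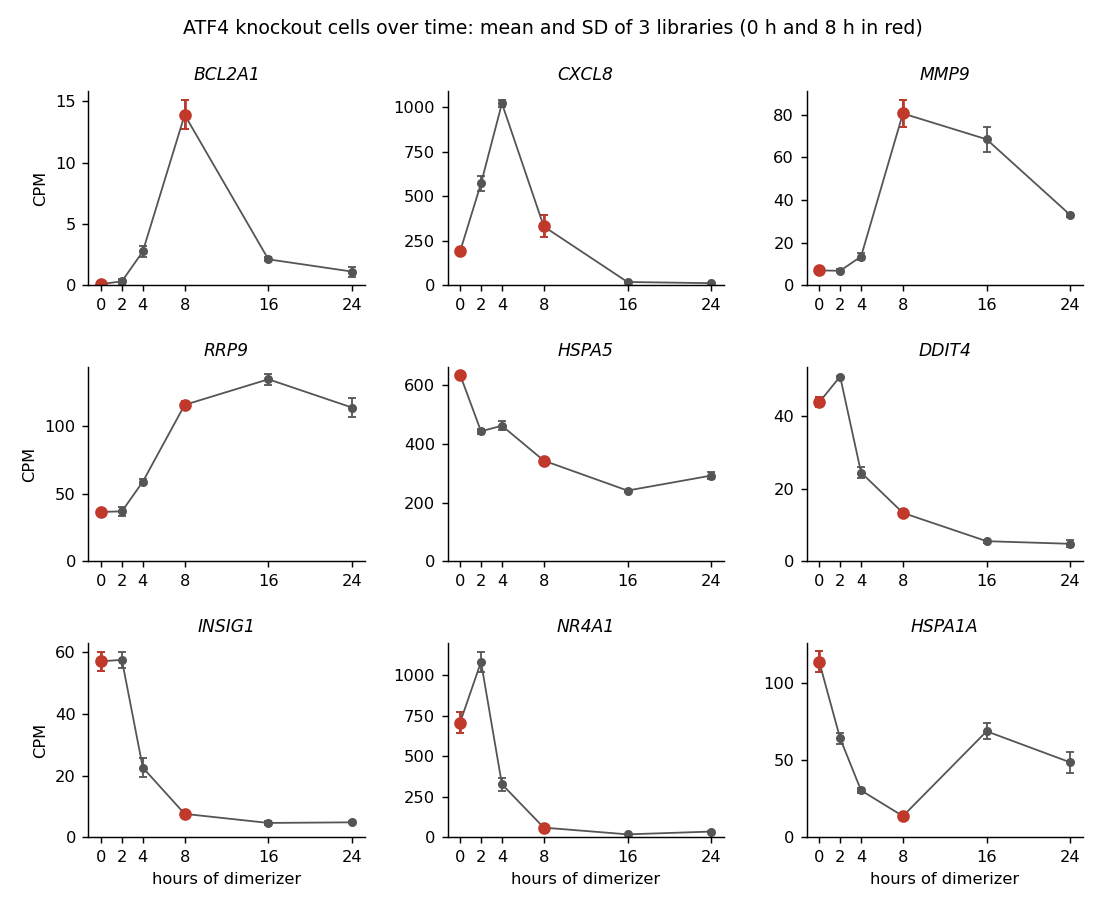
Mean CPM with SD of 3 libraries at 0, 2, 4, 8, 16 and 24 h of dimerizer in ATF4 knockout cells for 9 genes, each on its own linear axis from 0, with the 0 and 8 h groups in red. BCL2A1 and MMP9 are highest at 8 h, CXCL8 at 4 h and RRP9 at 16 h, HSPA1A is lowest at 8 h, and DDIT4, INSIG1 and NR4A1 have lost most of their untreated level by then.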

How the data were processed

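RNA of U2OS cells carrying Dmr-PERK was sequenced from directional mRNA libraries, 3 per group. Per the submitters' processing notes, Salmon 0.9.1 quantified the reads on GRCh38 after a FastQC 0.11.5 check; neither the strand setting nor which annotation release was used is stated there. The authors deposited estimated counts per gene, which were rounded to whole numbers, and TPM values from the authors' quantification, used for gene names and as an alternative.

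All 36 libraries (8608783 to 16265056 counts) entered 1 edgeR 4.0.16 quasi-likelihood fit (R 4.3.3) with a mean per group and TMM scaling. Its automatic count filter kept 19043 of 57665 genes, and p-values were adjusted over these by Benjamini-Hochberg. The 8 h against 0 h change in knockout cells, its difference from the WT change, and the steps from 4 to 8 h and from 8 to 16 h are contrasts of that fit. The fit was tested on simulated data. Errors are SE of log2 changes. Exact intervals (95%) and floors of 3 counts cover counting error only.

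The alternatives tried were no filter, DESeq2 1.42.0, RLE scaling, only the groups compared, the replicate number as a block, limma 3.58.1 on log2(TPM + 1) or log2(TPM + 0.1) with all columns, log2(TPM + 1) with only the TPM columns 1 and 2 of the untreated knockout, and each library left out. The TPM columns of 33 of 36 libraries fit their own counts best; the untreated knockout ones do not, since TPM columns 1 and 2 match count libraries 2 and 3 and TPM column 3 matches none. No replicates differed by less than sampling noise (chi-square per degree of freedom 1.34 to 2.18).

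The comparison and the 32 gene lists were chosen with earlier results of these data known. Genes named are fixed ISR genes, up to 5 largest called changes per list (mean of at least 1 CPM) with up to 3 called against its majority, the 15 largest rises and falls without overlap, the 8 largest changes in CPM each way, the 10 largest differences from WT each way and the 8 clearest peaks and troughs at 8 h. A few other list members, such as EGR1, JUN, NFKBIA, NCL, CRELD2 and IL11, were named after their values were seen. Promoters and motif shares come from RefSeq (GRCh38.p14) windows. Results for a few genes that the rule covers are not reported here.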

Additional observations from a re-analysis of the deposited data

Results flagged for a closer look

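The change at 8 h differed between knockout and WT cells by edgeR's interaction test in 2146 genes with the higher and 1331 with the lower change in the knockout. In the genes that follow, the change was also called in opposite directions in knockout and WT cells, and each value is the knockout change minus the WT change on the log2 scale. Among ISR genes these were DDIT4 (-4.39), VLDLR (-2.66), JDP2 (-2.55), NUPR1 (-2.49), GDF15 (-2.17), CEBPB (-1.45) and ATF3 (-1.41). Enzymes of serine and cysteine synthesis were CTH (-3.95), PSAT1 (-3.36) and PHGDH (-1.93), with the glycine carrier SLC6A9 (-3.27) and the synthetases AARS (-1.55) and EPRS (-1.07) beside them. ER genes were XBP1 (-2.26), HERPUD1 (-1.85) and HSPA5 (-1.26). The others with the lower change in the knockout were TSLP (-4.54), XKR8 (-4.06), FKBP9P1 (-3.89), OLAH (-3.74), HMOX1 (-1.56) and RUNX2 (-0.83). CSF2 (1.81) and IL11 (1.19) had the higher change in the knockout. The knockout fall itself lost its call in OLAH without untreated replicates 1 or 3 or 8 h replicate 1, with no filter or only the groups compared (adjusted p = 0.062 in edgeR for each), and in the TPM fits. In RUNX2 it was lost without untreated or 8 h replicate 3, with DESeq2 (log2 -0.16, adjusted p = 0.062), with no filter (edgeR adjusted p = 0.06) and in the TPM fits. In TPM over all columns the knockout fall was not called in ATF3 and changed sign in CEBPB, and with only TPM columns 1 and 2 the knockout change was not called in EPRS, XKR8 and IL11.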

How the results depend on the processing

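Over the alternatives on counts (RLE, DESeq2, no filter, only the groups compared), the knockout contrast kept its calls within 1.5 times (DESeq2 gave 5461 higher and 5276 lower), as did the difference from WT. Leaving out 1 library gave 5510 to 5675 higher and 5420 to 5686 lower, 857 to 906 and 1767 to 1867 of at least 2-fold, 1732 to 2037 and 1140 to 1282 for the difference from WT, 3719 to 4118 and 3438 to 3803 from 4 to 8 h (3719 and 3803 both without 4 h replicate 3, 49.4% higher), 4660 to 4917 and 4332 to 4604 from 8 to 16 h, and 5308 to 5428 and 5214 to 5361 in WT. The replicate number was not taken to pair the libraries, since not every same-numbered pair correlated above 0.1: knockout libraries at 0 and 8 h gave -0.0911 to -0.0142, though knockout 8 h with WT 0 h gave 0.124, 0.12 and 0.254, each 8 h library correlating best with the WT 0 h one of its own number. With the replicate number as a block 5852 genes were higher and 5922 lower, 2177 and 1349 in the difference from WT. Log2 TPM with limma moved more counts; the cause was not tested, and with all columns it includes the untreated column that matches no count library. At least 2-fold falls numbered 920 with log2(TPM + 1) and 927 with only TPM columns 1 and 2, and such rises 546 with only columns 1 and 2. The difference from WT had 662 higher and 841 lower genes with log2(TPM + 1), 632 and 787 with log2(TPM + 0.1), and 637 and 816 with columns 1 and 2, so that 44, 44.5 and 43.8% were higher in place of 61.7%. From 4 to 8 h 2099, 2058 and 2526 genes were higher (43, 43.5 and 43.2% of calls in place of 53%), and from 8 to 16 h 3237 and 3238 with all columns. Signs turned with all TPM columns (prior 1 and 0.1) for the knockout changes of CEBPB (0.03 and 0.04), EGR1 (0.51 and 0.52), FOSL1 (0.95 and 0.97), CYR61 (0.19 and 0.19) and TNFAIP3 (0.06 and 0.10), and for the differences from WT of NPM1 (-0.01 and -0.01), ERN1 (0.16 and 0.19), TUBB3 (-0.06 and -0.06), MAP2 (0.05 and 0.07) and TRAF1 (0.66 and 1.11). With these columns 13 of 41 S phase genes, 3 of 22 p53 targets and 3 of 22 heat shock genes were higher. So were 5 of 23 glycolysis genes and 4 of 20 NRF2 targets, and 0 of 12 MAP kinase phosphatase and Sprouty genes were lower. Over all 19043 genes log2(TPM + 1) called 4498 higher and 4926 lower in the knockout contrast with all columns. With only columns 1 and 2 it called 4407 and 4561.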

Other observations

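Other gene groups, picked after their values were seen and therefore given without a test of the group, also moved in ATF4 knockout cells at 8 h. The snoRNA host genes, whose introns hold small nucleolar RNAs and whose spliced transcripts carry many of the features that decay factors act on, rose in 17 of 23 cases and fell in 2, with a median log2 change of 0.80 (0.63 in WT cells). SNHG1 rose from 56.7, 58.2 and 54.0 CPM to 221, 212 and 209 CPM (log2 1.93 ± 0.05), SNHG17 by 1.96 ± 0.06 and ZFAS1 by 1.81 ± 0.05, while SNHG14 fell by 1.06 ± 0.07. All 6 metallothionein genes tested, which encode metal-binding proteins, rose (median 1.33, against 0.76 in WT cells, with the difference called in 3). MT1G rose from 10.6, 11.4 and 9.89 CPM to 39.2, 35.9 and 34.9 CPM (log2 1.79 ± 0.14); reads of these similar genes can be split between them.

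Entries named as replication-dependent histone genes, whose mRNAs mostly end without a poly(A) tail, fell in 13 of 20 cases and rose in 1. Their median log2 change was -1.09, and -1.02 in WT cells. HIST2H2BC, which fell, and HIST2H2BD, not called, matched no GENCODE 29 entry, and whether they are genes or pseudogenes was not checked. HIST2H2BE went from 6.86, 8.90 and 8.73 CPM to 2.23, 2.21 and 2.01 CPM (log2 -1.94 ± 0.19), at levels that rest on few counts. Mitochondrially encoded genes fell in 24 of 37 cases and rose in none (median -0.33). By annotation (16670 of the tested genes matched GENCODE 29), 37.1% of 12535 protein-coding genes were higher and 32.7% lower. Of 1177 lincRNAs 12.1% were higher and 28.3% lower (median log2 -0.28), and of 1186 antisense genes 10.8% and 23.7% (median -0.26), at median levels of 1.39 and 1.27 CPM against 27.3 CPM for protein-coding genes. No source used here gives the strand setting of the counting, so reads of an antisense gene and its partner may not be separated.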
